A study of Mus musculus with 62 samples.

Results

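A set of 9 transcripts that glucocorticoids switch on in many tissues, Tsc22d3, Fkbp5, Sgk1, Klf9, Klf15, Zbtb16, Ddit4, Errfi1 and Dusp1, were followed in mouse liver during the growth of a cachexia-causing melanoma. They were taken by symbol from a given list and make up 9 of the 47643 gene symbols in the table. All 9 passed the low-value filter, at least 1 TPM, a unit of expression scaled to gene length and library total, in at least 5 libraries, which 12160 genes passed. The livers came from female mice labelled as 2 months old, and the 62 RNA-seq libraries fall into 3 arms at 2, 4, 6 and 8 weeks. The same age is given at all 4 weeks, so whether the later livers came from older mice cannot be told from it. Mice of the first arm (CAC) had received melanoma cells that cause cachexia, the wasting of body mass that accompanies some tumours. The second arm (NCAC) had received melanoma cells that do not, and the third (Con) had been mock injected. Each arm had 5 libraries at each week, except for 7 in CAC at 8 weeks. The sample labels give the strain as C57BL6/J, the design text gives NCI Ath/nude mice, and the extraction protocol mentions LLC cells, which no group received. Which of these holds could not be settled, and nude mice, if used, lack a thymus. For the line names, the hour of killing and the feeding state, nothing is given in the sources used here.

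Glucocorticoids, corticosterone in mice, leave the adrenal cortex in a daily rhythm and in response to stress, inflammation and fasting. In blood most of the hormone is carried by corticosteroid-binding globulin, made in the liver from Serpina6, and inside hepatocytes the enzyme encoded by Hsd11b1 regenerates active hormone from its inactive keto form. The bound receptor, encoded by Nr3c1, is released from HSP90 chaperones, enters the nucleus and raises or lowers transcription of its target genes, among them enzymes of gluconeogenesis and amino acid breakdown in the liver. Many of these genes also answer to other signals. Of the 9, Fkbp5 and Tsc22d3 encode restraining factors, Klf9, Klf15 and Zbtb16 transcription factors, Sgk1 a kinase, and Ddit4, Errfi1 and Dusp1 inhibitors of growth and stress kinase pathways.

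The stretches before the transcription starts are shown because the glucocorticoid response element and the sites of other factors that act on these genes can be read in them. RefSeq (GRCm38.p6) held 16 start windows for 8 of the 9 genes. Each window held 250 bases before and 50 bases after the start, and all of it was searched on both strands. The palindromic glucocorticoid response element is AGAACA and TGTTCT with any 3 bases between them. It was found in 1 of these 16 windows, among the 6 of Sgk1, against 0.00913% of all 32851 windows. Its first base lies at -189 from that start. A single arm of the element, AGAACA or its complement TGTTCT, is also held by the whole element. It was found in 4 of the 16 windows, of Tsc22d3 and Sgk1, against 19.0% of all windows and 21.3% of all genes with a window. The cAMP response element TGACGTCA was found before Errfi1 (at -51) and Dusp1 (at -143), against 1.79% of all windows and 2.03% of genes. The clock E-box CACGTG was found before Fkbp5 (at -169), Klf15 (at -228, -172 and -3), Sgk1 and Dusp1 (at -126). It was in 7.15% of all windows and 8.09% of genes. The D-box TTATGTAA was found in no window of the 8 genes. These matches describe letters in short windows and are not measured binding sites. In the 5 stretches that follow, capitals mark these matches, and the E-box of Klf15 at -3 runs past the last letter and stays in lower case. In Sgk1 an E-box at -246 overlaps a TGTTCT at -242. The stretch of Sgk1 lies at chr10:21993640-21993889 on the plus strand, that of Fkbp5 at chr17:28486150-28486399 on the minus strand, and that of Klf15 at chr6:90462326-90462575 on the plus strand. The stretch of Errfi1 lies at chr4:150854820-150855069 on the plus strand and that of Dusp1, which runs from -250 to -101, at chr17:26508573-26508722 on the minus strand.
Sgk1: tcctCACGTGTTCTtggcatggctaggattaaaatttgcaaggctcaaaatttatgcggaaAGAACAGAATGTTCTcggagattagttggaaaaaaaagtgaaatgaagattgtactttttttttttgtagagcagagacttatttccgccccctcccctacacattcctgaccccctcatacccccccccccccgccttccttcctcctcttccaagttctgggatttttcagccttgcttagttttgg
Fkbp5: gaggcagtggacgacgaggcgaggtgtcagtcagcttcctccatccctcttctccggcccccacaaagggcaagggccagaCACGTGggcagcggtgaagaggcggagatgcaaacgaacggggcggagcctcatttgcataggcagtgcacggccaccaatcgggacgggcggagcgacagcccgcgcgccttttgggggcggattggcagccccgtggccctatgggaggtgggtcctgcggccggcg
Klf15: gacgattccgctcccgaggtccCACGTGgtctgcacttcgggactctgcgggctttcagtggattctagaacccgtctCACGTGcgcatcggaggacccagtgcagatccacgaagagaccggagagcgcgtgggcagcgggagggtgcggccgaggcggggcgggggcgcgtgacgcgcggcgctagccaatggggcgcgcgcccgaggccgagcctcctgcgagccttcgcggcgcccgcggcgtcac
Errfi1: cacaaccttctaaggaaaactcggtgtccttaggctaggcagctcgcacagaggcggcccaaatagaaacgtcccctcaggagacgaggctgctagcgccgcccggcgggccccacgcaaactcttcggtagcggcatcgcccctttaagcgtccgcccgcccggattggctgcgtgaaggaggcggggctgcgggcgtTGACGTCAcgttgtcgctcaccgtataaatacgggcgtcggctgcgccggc
Dusp1: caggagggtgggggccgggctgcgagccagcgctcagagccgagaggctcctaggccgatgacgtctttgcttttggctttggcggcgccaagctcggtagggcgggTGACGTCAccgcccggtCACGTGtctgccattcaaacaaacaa

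The libraries sum to 1e+06 TPM each, so their depth is unknown. Albumin (Alb) lay between 68580 and 104000 TPM in the 62 libraries. Transcripts of pancreatic acinar cells, an organ beside the liver, were present in some: 9 libraries held at least 100 TPM of the chymotrypsinogen Ctrb1, among them Con replicates 2 and 4 at 8 weeks (1906 and 282 TPM), CAC replicate 1 and Con replicate 4 at 6 weeks. At 8 weeks the 8 acinar markers summed to between 0 and 5229 TPM in Con, between 0 and 7.67 TPM in NCAC and between 0 and 0.728 TPM in CAC, and all 8 were called lower in CAC than in Con. Ctrb1 itself was listed at 0 in 5 of these 7 CAC livers. One CAC library of 8 weeks, replicate 3, stood apart from the other 6. It held 3365 TPM of the serum amyloid transcript Saa1 against at least 21970 in the others, and it was the lowest of the 7 for 5 of the glucocorticoid-induced genes. Both facts are set beside the results they touch. All levels here are of bulk tissue, in which fewer cells of a type and less RNA per cell cannot be told apart.

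The 9 genes covered a wide range of levels. Averaged over the 62 libraries, Errfi1 was the most abundant at 452 TPM, above 98.0% of tested genes, followed by Klf15 at 96.1, Klf9 at 36.6, Tsc22d3 at 31.7 and Fkbp5 at 31.7 TPM. Dusp1 stood at 13.2, Ddit4 at 9.79, Sgk1 at 7.39 and Zbtb16 at 6.90 TPM. Animals of one group differed much in these genes. Zbtb16 had a residual SD of 1.00 on the log2 scale and Ddit4 0.80, above 98.5% and 97.6% of tested genes, while the median gene had 0.23. Klf15 was the steadiest of the 9, with a residual SD of 0.30.

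**Figure D1:**
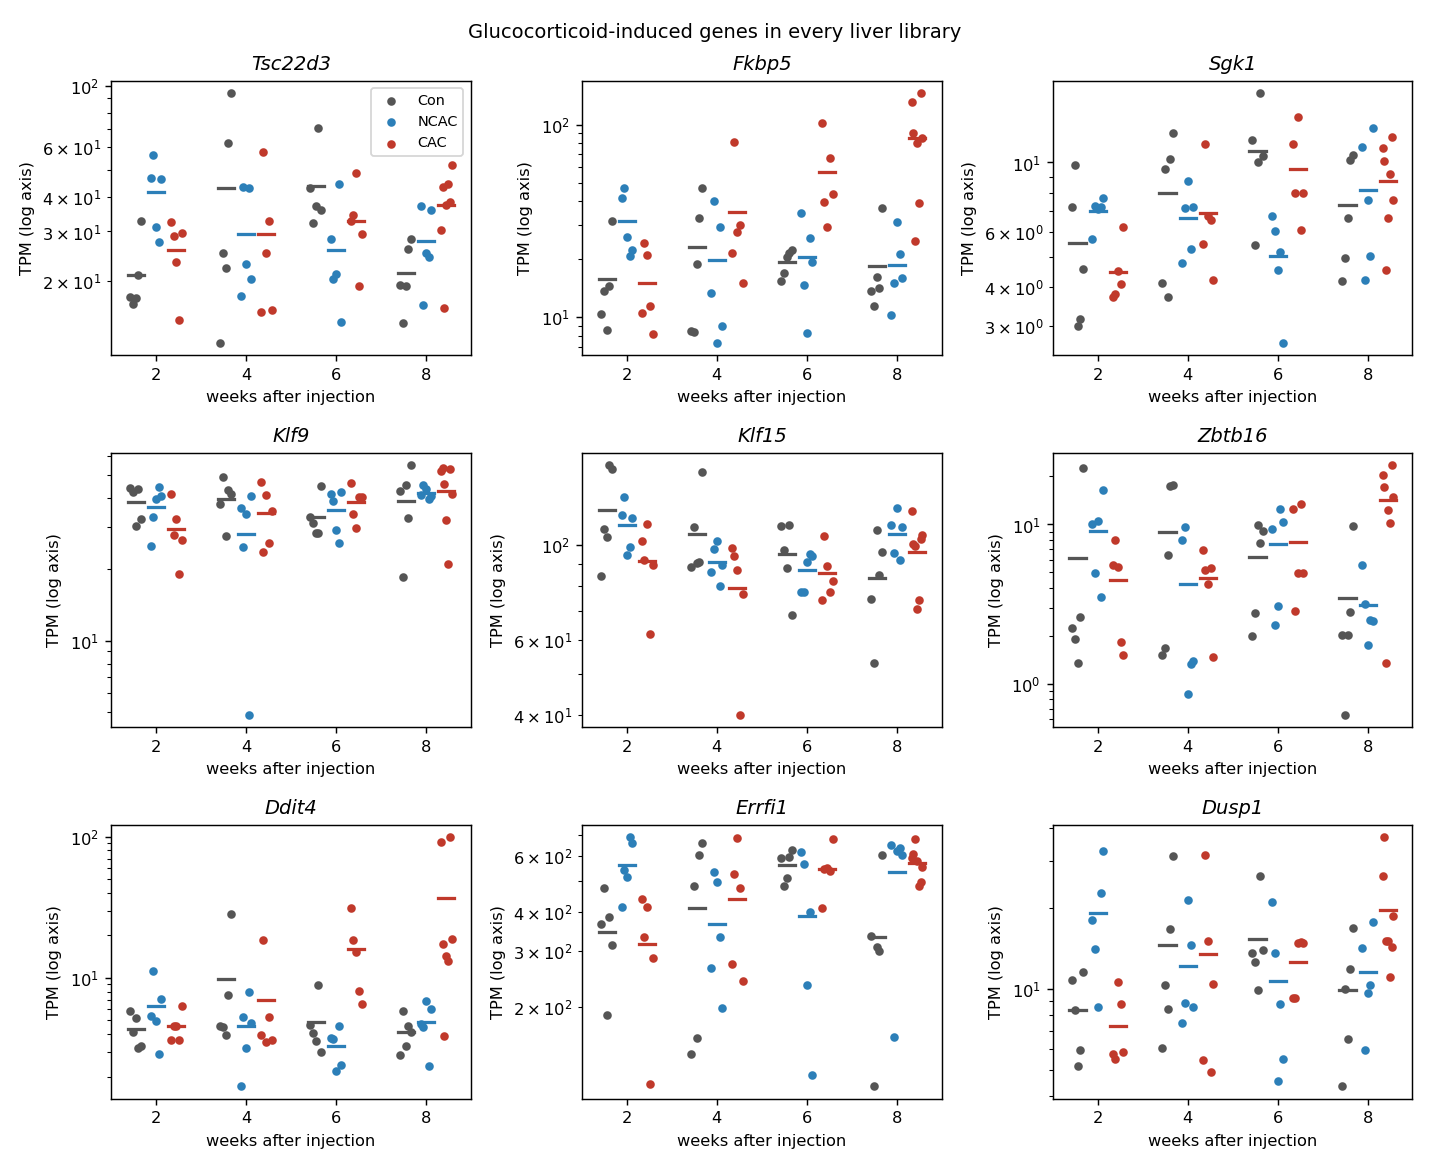
TPM of each of the 9 genes (log axis) against weeks after injection, with a point for each library and a bar for the group mean, in Con (grey), NCAC (blue) and CAC (red). Most CAC livers lie above the Con livers for Fkbp5 and Ddit4 at 6 and 8 weeks, while Klf9 and Klf15 overlap between arms at every week.

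In the CAC livers of 8 weeks, 5 of the 9 genes were higher than in mock-injected livers: Ddit4, Fkbp5, Zbtb16, Errfi1 and Dusp1. Of all tested genes 5.87% were called higher and 35.3% lower in that comparison (adjusted p under 0.05, limma), 41.2% in either direction. None of the 9 was called lower. The differences of the other 4 genes were also above 0, as were those of 23% of all tested genes, but that of Klf9 was -0.207 without the Ctrb1-rich libraries. The median difference of the 9 was 0.94 on the log2(TPM + 1) scale, and that of all tested genes -0.21. In NCAC against the same Con livers all 9 differences were above 0 too, as were those of 63.6% of all tested genes. Their median there was 0.19, against 0.06 over all tested genes.

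Fkbp5 encodes a co-chaperone of HSP90 that lowers the affinity of the glucocorticoid receptor for its hormone, and it is itself strongly induced by the receptor. At 8 weeks its level was 13.7, 11.4, 16.2, 14.2 and 36.9 TPM in the 5 Con livers, 10.3, 15.1, 31.1, 21.3 and 16.1 TPM in the 5 NCAC livers, and between 24.9 and 144.9 TPM with a median of 85.2 in the 7 CAC livers. Of the CAC livers 6 lay above every Con liver, and only replicate 3, at 24.9 TPM, fell among them. The CAC minus Con difference was 2.07 ± 0.43 (SE) on the log2(TPM + 1) scale, with limma adjusted p = 0.000127. Against NCAC it was 2.00 ± 0.43 (adjusted p = 0.000164). Without CAC replicate 3 the difference from Con was 2.32, and without the libraries rich in Ctrb1 it was 1.81 (adjusted p = 0.0043).

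Ddit4, also called REDD1, encodes an inhibitor of mTORC1 signalling that is induced by glucocorticoids, low oxygen and nutrient stress. The Con livers of 8 weeks held 2.83, 5.87, 3.30, 4.58 and 4.11 TPM and the NCAC livers 4.69, 4.49, 6.92, 2.39 and 5.99 TPM. The CAC livers ranged from 3.88 to 99.5 TPM with a median of 17.3. Replicates 1 and 6, at 92.3 and 99.5 TPM, stood far above the other 5, and replicate 3, at 3.88 TPM, lay within the Con range. The difference from Con was 2.20 ± 0.45 (limma adjusted p = 0.000125) and that from NCAC 2.03 ± 0.45 (adjusted p = 0.000302). Leaving out any 1 of the 12 CAC or Con libraries kept the difference from Con between 1.85 and 2.58, and it was called each time.

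Zbtb16, which encodes the zinc finger repressor PLZF, held 2.02, 0.644, 2.02, 2.82 and 9.73 TPM in the Con livers of 8 weeks and 5.602, 3.19, 1.76, 2.51 and 2.49 TPM in the NCAC livers. The CAC livers ranged from 1.36 to 23.5 TPM with a median of 14.8. Of these 7, 6 lay above all Con and all NCAC livers, and replicate 3 had the lowest level of the CAC livers. The difference was 1.81 ± 0.56 from Con (limma adjusted p = 0.0085) and 1.69 ± 0.56 from NCAC (adjusted p = 0.0119). Without CAC replicate 3 they were 2.22 and 2.10. Without the libraries rich in Ctrb1, which leaves 3 of the Con livers, the difference from Con was 1.46 and was not called (adjusted p = 0.0715), and the one from NCAC was still called.

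Errfi1 encodes Mig-6, an inhibitor of the EGF receptor, and Dusp1 a phosphatase that inactivates the p38 and JNK kinases. Errfi1 held 334, 112, 309, 301 and 606 TPM in the Con livers of 8 weeks and between 483 and 679 TPM, with a median of 578, in the CAC livers. All 7 CAC livers lay above the Con median and 2 above the highest Con liver, so the groups overlapped. The difference was 0.96 ± 0.38 (limma adjusted p = 0.0367). Con replicate 2, the liver with the most Ctrb1, was also the lowest for Errfi1, and without it the difference was 0.613 (adjusted p = 0.191). Without both Ctrb1-rich Con livers it was 0.513 (adjusted p = 0.323), and the part of pancreatic RNA in the result was not tested further. The call was lost without 6 of the 12 libraries in turn. It was also lost without the filter (adjusted p = 0.0557), without the 20 highest genes (0.0687) and with the replicate block (0.0651). The NCAC livers held 651, 161, 622, 636 and 606 TPM of Errfi1, 4 of them within the range of the CAC livers, and CAC minus NCAC was 0.24 with a 95% interval from -0.51 to 1.00.

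Dusp1 held 4.34, 10.01, 6.52, 11.9 and 16.9 TPM in Con and 14.2, 5.91, 9.66, 10.4 and 17.9 TPM in NCAC at 8 weeks. The CAC livers ranged from 11.1 to 36.9 TPM with a median of 15.1. All 7 exceeded the Con median, 3 exceeded every Con liver, and the rest overlapped with Con. The difference from Con was 0.94 ± 0.37 (limma adjusted p = 0.0353), and that from NCAC 0.69 with a 95% interval from -0.05 to 1.43, not called (adjusted p = 0.113). Without CAC replicate 2, the highest, the difference from Con was 0.778 (adjusted p = 0.0922), and without Con replicate 1, the lowest, it was 0.713 (adjusted p = 0.145). The call was also lost without CAC replicate 1 (adjusted p = 0.0741) or Con replicate 3 (0.0895). It was lost as well without the filter (0.0539), without the 20 highest genes (0.0599) and with the replicate block (0.0529).

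The other 4 genes were not called at 8 weeks. Tsc22d3, which encodes the anti-inflammatory protein GILZ, held 19.3, 14.1, 19.1, 26.0 and 28.1 TPM in Con and between 16.0 and 51.8 TPM with a median of 38.2 in CAC, where 6 of 7 livers lay above every Con liver and replicate 3 did not. Its difference was 0.75 ± 0.34 (limma adjusted p = 0.0689), and without replicate 3 it was 0.93 and was called (adjusted p = 0.0205). Sgk1, a kinase that controls ion channels, had a difference of 0.25, with a 95% interval from -0.29 to 0.80. Klf9, a zinc finger repressor, had 0.16 (from -0.39 to 0.70), and Klf15, which drives genes of amino acid breakdown and gluconeogenesis, 0.22 (from -0.12 to 0.56). Klf9 was 42.6 ± 12.1 TPM (SD, n = 7) in CAC and 38.8 ± 13.7 TPM (SD, n = 5) in Con, and Klf15 was 96.1 ± 17.6 against 83.4 ± 21.2 TPM. These intervals do not show that the 3 genes were equal between the arms, and they leave out differences as large as those measured for Fkbp5 and Ddit4.

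**Figure D2:**
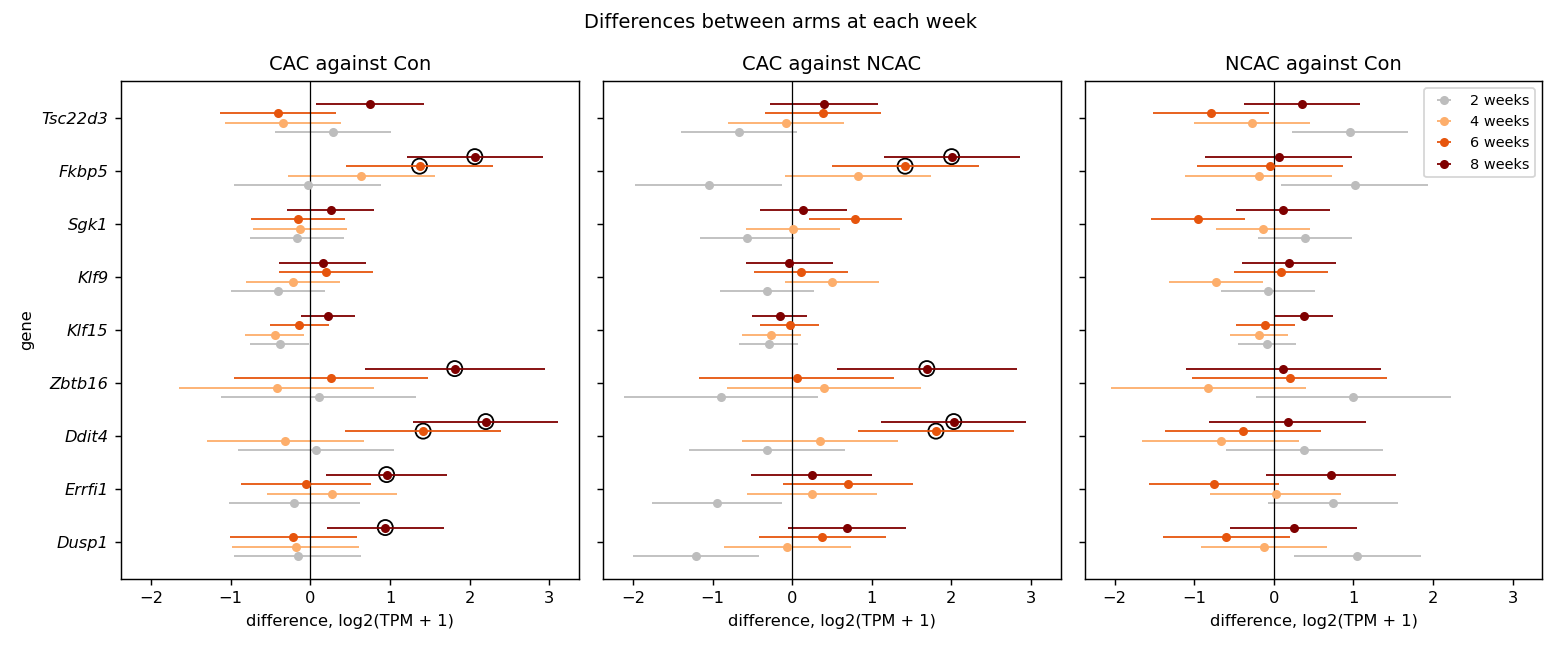
Differences on the log2(TPM + 1) scale between arms for the 9 genes, one panel per pair of arms and one colour per week, with 95% intervals, where rings mark adjusted p under 0.05. Rings appear for CAC at 6 and 8 weeks (Fkbp5 and Ddit4 at both, with Zbtb16, Errfi1 and Dusp1 at 8 weeks against Con) and nowhere for NCAC against Con.

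CAC and NCAC livers differed at 8 weeks in fewer of the 9 genes: 3, Fkbp5, Zbtb16 and Ddit4, were higher in CAC and none lower. The background was 5.09% of tested genes called higher and 43.1% lower, 48.2% in either direction. This comparison and the one with Con share the CAC libraries, so their values stand side by side and are not independent.

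At 6 weeks Fkbp5 and Ddit4 were already higher in the CAC livers, and the other 7 genes were not called. Of all tested genes 5% were called higher than Con and 15.3% in either direction. Against NCAC 6.55% were called higher and 5.54% lower, 12.1% in either direction. Fkbp5 held 15.4, 17.1, 20.6, 21.7 and 22.3 TPM in Con and 102.3, 39.7, 29.5, 67.5 and 43.5 TPM in CAC, and the 2 groups did not overlap. Its difference was 1.37 ± 0.46 from Con (limma adjusted p = 0.0342) and 1.42 ± 0.46 from NCAC (adjusted p = 0.0315), whose livers held 34.6, 14.7, 8.35, 25.8 and 19.3 TPM. Ddit4 held 4.64, 4.04, 3.60, 8.91 and 3.01 TPM in Con, 3.78, 3.70, 2.17, 4.53 and 2.41 TPM in NCAC and 31.4, 18.5, 15.3, 8.08 and 6.54 TPM in CAC. Here CAC and NCAC did not overlap, while Con replicate 4 lay above 2 of the CAC livers. The difference was 1.42 ± 0.49 from Con (adjusted p = 0.0408) and 1.81 ± 0.49 from NCAC (adjusted p = 0.00826).

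These 6-week calls rest on few libraries. CAC replicate 1 was the highest for both genes and held 146.3 TPM of Ctrb1. Without it Fkbp5 differed from Con by 1.13 (limma adjusted p = 0.138) and Ddit4 by 1.13 (adjusted p = 0.159), and from NCAC by 1.17 (adjusted p = 0.141) and 1.52 (adjusted p = 0.0546). The call of Fkbp5 against Con was also lost without CAC replicate 4 or Con replicate 1, 2, 3 or 5. That of Ddit4 was lost without CAC replicate 2 or 3 or Con replicate 1, 2, 3 or 5. In all of these the differences stayed between 1.13 and 1.42. The call of Fkbp5 against NCAC was lost without CAC replicate 4 or NCAC replicate 2, 3 or 5 as well, at differences of 1.15 to 1.43.

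Before 6 weeks no member was called in CAC. At 2 weeks 0.00822% of tested genes were called against Con and 0% against NCAC. At 4 weeks 1.91% were called against Con (1.3% higher) and 1.27% against NCAC (1.11% higher). The 9 differences from Con lay between -0.40 and 0.28 at 2 weeks and between -0.45 and 0.64 at 4 weeks, with an unadjusted p under 0.05 for 1 gene each time, beside 1298 and 1570 of the 12160 tested genes. The largest at 4 weeks was that of Fkbp5, where 1 CAC liver held 81.0 TPM and the other 4 held 21.6, 27.7, 30.2 and 15.03 TPM, against 8.54, 8.42, 19.0, 33.0 and 46.7 TPM in Con. The gene with an unadjusted p under 0.05 against Con was Klf15 both times, lower in CAC (-0.38 and -0.45). Against NCAC at 2 weeks 0 of the 9 differences lay above 0, beside 46.2% of all tested genes. Their median was -0.67, against -0.02 over all tested genes, and 3 had an unadjusted p under 0.05, beside 1770 of all tested genes. Against NCAC at 4 weeks 6 of the 9 lay above 0, beside 52.3%. Of 14 acute phase genes, all 14 were called higher than Con at 4 weeks.

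Over the 4 time points, the CAC minus Con difference of Fkbp5 rose by 0.70 ± 0.20 per 2 weeks (limma adjusted p = 0.0112) and that of Ddit4 by 0.81 ± 0.21 (adjusted p = 0.00613). Of all tested genes 3.35% had a called upward trend and 15.7% a trend in either direction. Both trends were called whichever of the 42 CAC and Con libraries was left out, but without the 9 libraries rich in Ctrb1 that of Fkbp5 was 0.544 (adjusted p = 0.136). The fitted trends of the other 7 genes were above 0 and not called, from 0.12 for Sgk1 to 0.58 for Zbtb16. The step of CAC minus Con from 6 to 8 weeks was called for no member and for 0% of tested genes by limma. At an unadjusted p under 0.05 it passed for 2 members, Tsc22d3 (1.15 ± 0.50) and Dusp1 (1.16 ± 0.54), and for 2189 of all tested genes. Zbtb16, Errfi1 and Dusp1, called at 8 weeks and not at 6, are therefore not shown to differ between these weeks.

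By group mean, Fkbp5 was highest in CAC at 8 weeks (85.1 ± 43.6 TPM, SD, n = 7), then in CAC at 6 weeks (56.5 ± 29.2, n = 5), CAC at 4 weeks (35.1 ± 26.3) and NCAC at 2 weeks (31.5 ± 11.8). The remaining 8 groups lay between 15.1 and 23.1 TPM. For Ddit4 the order was CAC at 8 weeks (37.0 ± 40.6 TPM), CAC at 6 weeks (16.0 ± 9.94) and Con at 4 weeks (9.75 ± 10.4), where a single liver held 28.3 TPM. Zbtb16 was highest in CAC at 8 weeks (14.3 ± 7.29 TPM), ahead of NCAC at 2 weeks (9.10 ± 5.12) and Con at 4 weeks (8.93 ± 8.08). Neighbours in these orders differed by less than the larger of their SDs. Tsc22d3 and Sgk1 had their highest group means in Con at 6 weeks (43.7 ± 15.4 and 10.9 ± 4.02 TPM).

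In livers of mice with the melanoma that does not cause cachexia, none of the 9 genes was called against Con at any week by limma. The background was 0% of tested genes at 2, 4 and 6 weeks and 0.181% at 8 weeks (0.0247% higher), and the members with an unadjusted p under 0.05 numbered 3, 1, 2 and 1, beside 1298, 934, 1094 and 1330 of the 12160 tested genes. Those of 2 and 8 weeks were higher than Con, while Klf9 at 4 weeks (-0.73) and Tsc22d3 and Sgk1 at 6 weeks (-0.79 and -0.95) were lower. At 2 weeks 7 of the 9 values lay above 0, as did 41.2% of all tested genes, with a median of 0.75 against -0.04 over all tested genes. The second of 2 clock scores, with weights from clock gene variation within groups, had a mean of 1.52 in NCAC and -1.70 in Con at 2 weeks. With both scores as covariates Tsc22d3 was at 0.14, Errfi1 at 0.113, Fkbp5 at -0.0378 and Zbtb16 at -0.406, none called. Dusp1 had the largest difference of the 9 in the main fit (1.05). Under the 12 alternatives other than leaving out a library, the clock scores among them, it lay between 0.677 and 1.13. Sgk1 lay between 0.17 and 0.473 and Ddit4 between 0.0936 and 0.441, and none of these 3 was called. In TPM at 2 weeks, Dusp1 held 18.04, 14.1, 8.61, 22.9 and 32.6 in NCAC and 10.8, 8.37, 5.16, 5.91 and 11.5 in Con. Fkbp5 held 41.5, 46.7, 26.0, 20.8 and 22.4 TPM against 10.4, 13.7, 8.62, 14.6 and 31.7 TPM. In the fit within week 2 alone, Tsc22d3 was called higher in NCAC than in Con (0.951, adjusted p = 0.0429) and Dusp1 lower in CAC than in NCAC (-1.21, adjusted p = 0.0282). That fit called 406 and 994 of its 11179 genes in these comparisons. No member was called for change among the Con livers of the 4 weeks, against 0.23% of tested genes, and 3 of 9 passed an unadjusted p under 0.05 (Tsc22d3, Sgk1 and Klf15) with 2236 of all tested genes.

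Of 18 measured genes for the receptor, hormone transport and metabolism, chaperones and cofactors, 2 were higher and 7 lower than Con in CAC livers at 8 weeks, beside 5.87% and 35.3% of all tested genes. Without the Ctrb1-rich libraries 0 were higher and 11 lower. Serpina6, which encodes corticosteroid-binding globulin, fell by 4.00 ± 0.55 on the log2(TPM + 1) scale (limma adjusted p = 1.24e-07), from 745.1 ± 306.2 TPM (SD, n = 5) in Con to 120.6 ± 215.2 TPM (SD, n = 7) in CAC. In Con it held 594, 386, 1184, 663 and 898 TPM. In CAC it ranged from 7.07 to 603 TPM with a median of 37.1, and the highest was replicate 3, the liver with the least Fkbp5, Ddit4 and Zbtb16. At 6 weeks it was also lower, by -3.01 ± 0.60 (adjusted p = 0.000254).

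Fkbp4 encodes FKBP52, a co-chaperone that counters the product of Fkbp5 at the receptor. It fell by 1.28 ± 0.24 at 8 weeks (limma adjusted p = 3.77e-05), to 53.4 ± 31.4 TPM (SD, n = 7) from 113.7 ± 12.9 TPM (SD, n = 5). The other genes called lower were Srd5a1, which encodes an enzyme of steroid metabolism (-0.96), the chaperones Hsp90ab1 (-0.56), Stip1 (-0.73) and Ptges3 (-0.35), and Hsd11b1 (-0.37, adjusted p = 0.00409). The 2 called higher were H6pd (0.35), which supplies the cofactor of the Hsd11b1 enzyme, and the coactivator Ppargc1a (0.61). With median-of-ratios rescaling, which moves the median of all genes from -0.21 to 0.01, 3 of the 18 were lower, Serpina6 by -3.75 and Fkbp4 by -1.02, and Hsd11b1 was not called (-0.107, adjusted p = 0.477).

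The receptor transcript Nr3c1 was 16.2 ± 1.61 TPM (SD, n = 7) in CAC, 20.01 ± 6.38 in Con and 24.2 ± 2.36 in NCAC at 8 weeks. It was not called against Con (-0.24 ± 0.16, limma adjusted p = 0.236) and was lower than in NCAC (-0.55 ± 0.16, adjusted p = 0.00439). Con replicate 2, with the most Ctrb1, held 11.3 TPM of Nr3c1, below the other 4 Con livers at 23.5, 19.6, 17.4 and 28.3 TPM. Without the Ctrb1-rich libraries CAC was lower than Con, by -0.521 (adjusted p = 0.00303), while with median-of-ratios rescaling of all libraries the difference was 0.00918.

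**Figure D3:**
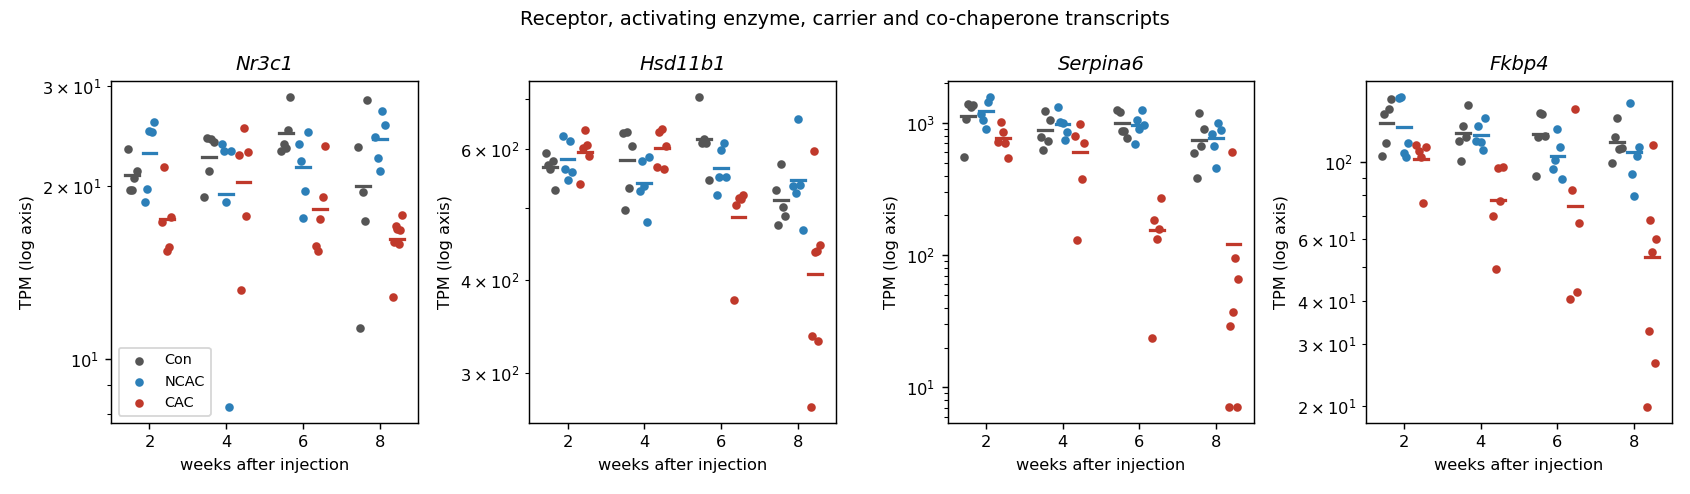
TPM (log axes) of the receptor Nr3c1, the activating enzyme Hsd11b1, the carrier Serpina6 and the co-chaperone Fkbp4 against weeks after injection, with a point for each library and a bar for the group mean. The CAC livers of 8 weeks lie lowest for Serpina6, at a mean of 120.6 TPM against 745.1 in Con, with 1 CAC liver at 603 TPM.

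Other genes known to respond to glucocorticoids were called in growing number over the weeks. Of 30 measured, 0, 2, 6 and 14 were higher than Con in CAC livers at 2, 4, 6 and 8 weeks, and 1, Tfcp2l1, was lower at 8 weeks. Of all tested genes 0.00822%, 1.3%, 5% and 5.87% were higher at these weeks. The 14 of 8 weeks became 8 with the replicate number as a block, 9 without the 20 highest genes or without the Ctrb1-rich libraries, and 10 with 2 scores of clock gene variation as covariates. The list was assembled with results of these data known, so its direction is not independent evidence, and several of its genes also answer to cytokines. The metallothionein Mt2 led (6.04 ± 0.58, limma adjusted p = 1.05e-11), with the estrogen sulfotransferase Sult1e1 (5.69 ± 0.76) and the transcription factor Cebpd (1.82 ± 0.30). Liver enzymes of amino acid breakdown and gluconeogenesis were called with smaller differences: the tyrosine aminotransferase Tat by 1.48, the tryptophan dioxygenase Tdo2 by 0.64, the carboxykinase Pck1 by 0.70 and the aspartate aminotransferase Got1 by 0.85. Igfbp1, which binds insulin-like growth factors, was higher by 2.61 and was highest in CAC replicates 1 and 6 (397.5 and 284.9 TPM), the livers with the most Ddit4. Against NCAC at 8 weeks 8 of the 30 were higher and 5 lower, beside 5.09% and 43.1% of all tested genes. The lower ones included G6pc (-1.495) and Pdk4 (-1.20), while Pck1 was not called (-0.01).

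Cytokine and growth factor signals also reach some of these genes. All 14 acute phase genes were higher than Con in CAC at 6 and 8 weeks. Of 13 immediate early genes, transcribed within minutes of a signal, 3 were higher at 6 weeks and 4 at 8 weeks (Btg2, Ier3, Zfp36 and Jun), beside 5% and 5.87% of all tested genes, and none was lower. The 4 became 2 with the replicate block or without the 20 highest genes. Of 4 measured neutrophil markers 2 were higher than Con at 8 weeks, and the summed level of the list was 58.6 to 153.2 TPM in CAC at 8 weeks, 10.9 to 33.0 TPM in Con and 12.9 to 18.2 TPM in NCAC. Of the other liver cell lists, 5 of 7 Kupffer cell, 5 of 5 B and plasma cell and 3 of 3 T and NK cell markers were lower than Con at 8 weeks, beside 35.3% of all tested genes, and 2 of 6 endothelial markers were higher. The part of these signals and cells in the levels of the 9 genes was not tested.

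Several of the 9 genes varied with genes of the circadian clock. Of 16 clock genes 2 were called at 8 weeks against Con, the repressor Nr1d1 lower (-2.32 ± 0.71, limma adjusted p = 0.00705) and Nfil3 higher (0.64 ± 0.27, adjusted p = 0.0473), beside 41.2% of all tested genes. Per1, counted in the list of other glucocorticoid-responsive genes, was also higher (1.41, adjusted p = 0.0237). Against NCAC 7 of the 16 were lower, Nr1d1, Dbp, Tef, Hlf, Bhlhe41, Cry2 and Per3, beside 43.1% of all tested genes. The weights of the 2 clock scores were the 2 leading principal components of these genes after each group's mean was removed. The scores themselves were taken from values with only each gene's overall mean removed, so they keep differences between groups. As covariates they therefore also take out differences between arms in these clock genes. At 8 weeks the first had a mean of 0.65 in Con, 1.70 in NCAC and -1.17 in CAC, and the second -1.69, 0.006 and 0.70. Across the 62 libraries, deviations of the second score and of a gene from their group means were correlated. The correlation was 0.70 for Fkbp5, 0.69 for Zbtb16, 0.61 for Tsc22d3 and 0.48 for Errfi1, and 0.12 for Ddit4. These values share libraries and scaling and are given as a description. With both scores as covariates, Fkbp5 (1.26, adjusted p = 0.00347) and Ddit4 (1.82, adjusted p = 0.00255) were called against Con at 8 weeks. Zbtb16 (0.734, adjusted p = 0.212), Errfi1 (0.489, adjusted p = 0.319) and Dusp1 (0.623, adjusted p = 0.224) were not, and Tsc22d3 was at -0.0199 and Sgk1 at -0.0171. Against NCAC, Fkbp5, Zbtb16 and Ddit4 were called with these covariates too (1.73, 1.31 and 1.61). Whether the arms were killed at different hours cannot be told from the labels.

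**Figure D4:**
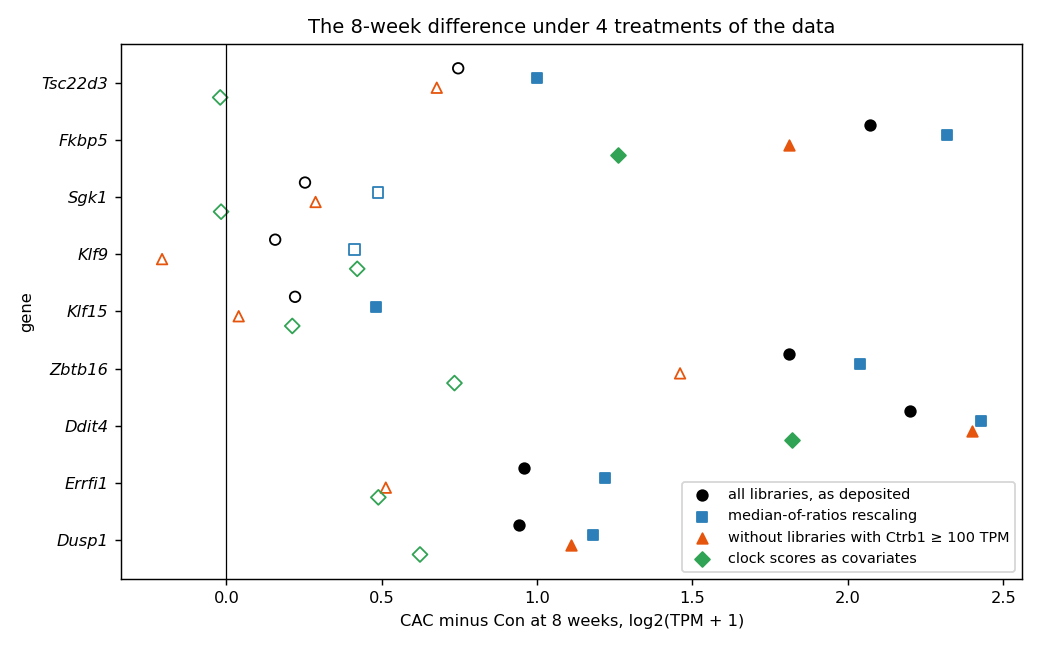
CAC minus Con at 8 weeks on the log2(TPM + 1) scale for the 9 genes under 4 treatments of the data, with filled symbols for adjusted p under 0.05 and open ones otherwise. Fkbp5 and Ddit4 are filled under all 4, while Zbtb16 and Errfi1 are open without the Ctrb1-rich libraries and with the clock scores.

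The scale of the values bears on the counts. TPM of a library sum to a constant, and Saa1 alone held up to 44150 TPM in a CAC liver of 8 weeks against at most 156.8 TPM in Con. As deposited, 714 genes were higher and 4291 lower than Con, and after median-of-ratios rescaling 1622 and 1603. The members called higher were then 7, with Tsc22d3 (1.00, limma adjusted p = 0.0263) and Klf15 (0.481, adjusted p = 0.0268) added, and after rescaling without the 20 highest genes they were 3. At 6 weeks the split was 608 higher and 1254 lower as deposited and 1034 and 692 rescaled, and 2 members were called either way. Against NCAC at 8 weeks it was 619 and 5244 as deposited and 1488 and 1564 rescaled, with 3 and 4 members called.

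Within groups the 9 genes rose and fell together only in part. Over the 36 pairs the median correlation of deviations from group means was 0.30, and 33 pairs were positive. Fkbp5 and Zbtb16 were the closest pair (0.70), and Tsc22d3 correlated with Sgk1 (0.60), Fkbp5 (0.58) and Errfi1 (0.56). Klf9 stood apart, at -0.24 with Tsc22d3, -0.12 with Ddit4 and -0.07 with Fkbp5, and correlated with the receptor transcript Nr3c1 at 0.74. Ddit4 correlated with Serpina6 at -0.75 within groups and Errfi1 with the clock gene Per1 at 0.80. These are descriptions over 62 libraries that share their normalization. Without the Ctrb1-rich libraries the median was 0.34 and 35 of the 36 pairs were positive. Klf9 was then at -0.338 with Tsc22d3, 0.00269 with Ddit4 and 0.0167 with Fkbp5. Its correlation with Nr3c1 was not computed without these libraries.

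**Figure D5:**
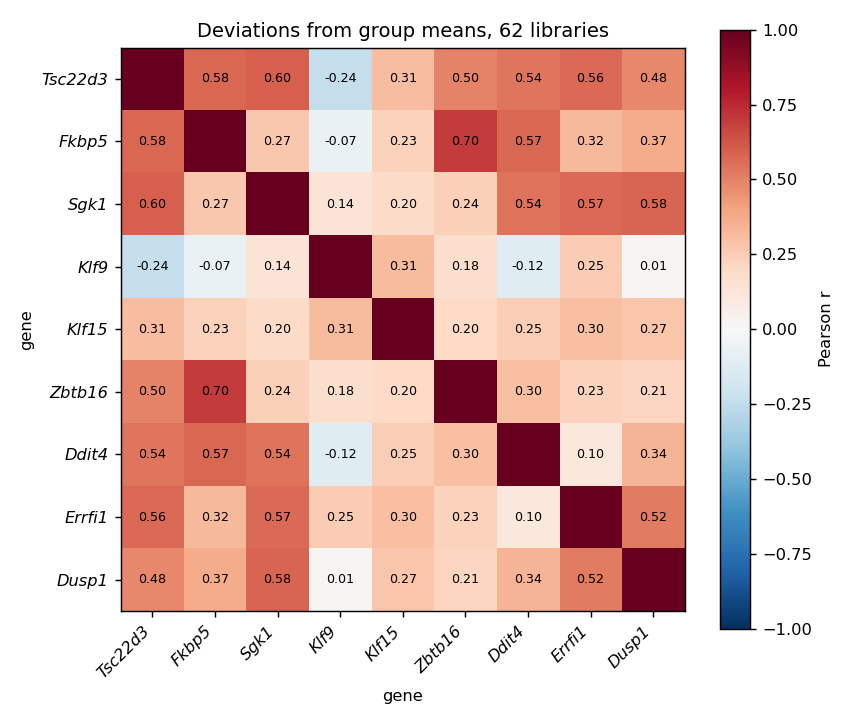
Pearson correlation of deviations from group means on the log2(TPM + 1) scale between each pair of the 9 genes, over 62 libraries, from blue (negative) to red (positive). Most pairs are positive, with 0.70 between Fkbp5 and Zbtb16, while the row of Klf9 holds the negative values.

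The genes whose levels were most like each member over the 62 libraries were taken from 7013 candidates. For Fkbp5 these were Fbxo31 (Pearson r = 0.92), Eif4ebp3 (0.89) and the interleukin 1 receptor Il1r1 (0.88), and for Ddit4 Pole4 (0.86), Abcd4 (0.85) and Serinc3 (0.84). Zbtb16 was most like the interleukin 6 receptor Il6ra (0.83), with a within-group r of 0.84, so this likeness was as high within groups as across them. Tsc22d3 was most like Ppp1r3b (0.81), which directs glycogen storage, Tat (0.74) and Cry1 (0.71). Errfi1 was most like Tob2 and Per1 (both 0.84), and Sgk1 had Tob2 (0.73) and Rasgef1b (0.72) in common with it. Klf9 was closest to Ncoa2 (0.83) and Klf15 to Foxo3 (0.64).

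The animals that stood highest were often so for several genes at once. Con replicate 5 of 4 weeks was the highest of its group for 8 of the 9 genes, with Tsc22d3 at 93.6, Fkbp5 at 46.7 and Ddit4 at 28.3 TPM. Con replicate 5 of 8 weeks was highest for 7, with Fkbp5 at 36.9 and Zbtb16 at 9.73 TPM, and replicate 2 of that group was lowest for 6. In CAC at 8 weeks replicate 6 was highest for 4 (Fkbp5, Sgk1, Zbtb16 and Ddit4). Single mock-injected livers thus reached levels of Tsc22d3 above all CAC livers, while none reached the Fkbp5 level of the median CAC liver of 8 weeks.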

How the data were processed

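The deposited values are TPM, in a single table by the authors with 47643 gene symbols and 62 libraries. According to the labels, Trizol RNA was sequenced from stranded TruSeq mRNA libraries of biological replicates on a NovaSeq instrument. Per the submitters' processing notes the build was mm10. Of the aligner and quantifier nothing is given in the sources used here, depth and counting error are unknown, and no count model was used. Columns were matched to samples by name (0 unmapped).

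Genes reaching 1 TPM in 5 or more libraries (12160) were analysed as log2(TPM + 1) with limma 3.58.1 under R 4.3.3, using 12 group means over all 62 libraries, a moderation trend and 50 residual degrees of freedom. The added 1 understates changes of low genes. The 3 pairs of arms at each week, trends (weights -3, -1, 1 and 3, per 2 weeks), the step from 6 to 8 weeks and an F test among Con weeks made 16 comparisons, each Benjamini-Hochberg adjusted and called at adjusted p under 0.05. Intervals are 95%. All 9 members are named, with the 2 to 4 genes of smallest p per list and up to 3 most similar genes per member, predicted and clone names left out. A gene that this rule names is not reported here. The members and lists were chosen with earlier results of these data known, and genes outside this rule were chosen after their values were seen. Start windows and sequences are from RefSeq. The fit was tested on simulated data, and figures were drawn with Python 3.11.15 and matplotlib 3.10.9.

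Alternatives were a pseudocount of 0.1, no filter, a mean filter of 5 TPM, median-of-ratios and quantile scaling, rescaling without the 20 highest genes, robust moderation, a fit within each week, the replicate number as a block, each library left out, exclusion of the 9 libraries reaching 100 TPM of Ctrb1 or the 12 reaching that or 10 TPM of Acta1, and 2 clock scores as covariates. In the main fit, SEs and p-values rest on a single spread per gene, pooled over the libraries within all 12 groups and moderated. They do not measure the spread of the 2 groups compared alone. For Ddit4 the pooled residual SD was 0.80 on the log2 scale, beside 1.56 in CAC and 0.33 in Con at 8 weeks. For Fkbp5 it was 0.75, beside 0.69 in CAC and 0.22 in Con at 6 weeks.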

Additional observations from a re-analysis of the deposited data

Results flagged for a closer look

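Each of the 9 genes was examined in each of the 12 groups, 108 sets in all, for a highest or lowest library far from the rest of its group by Dixon's test at the 95% level, which chance alone passes in about 5 percent of sets. It was passed by 8. Zbtb16 was at 22.6 TPM in Con replicate 5 of 2 weeks, against 1.34 to 2.63 in the other 4, and at 1.36 TPM in CAC replicate 3 of 8 weeks, against 10.1 to 23.5 in the other 6. Fkbp5 was at 36.9 TPM in Con replicate 5 of 8 weeks, against 11.4 to 16.2. Ddit4 was at 18.5 TPM in CAC replicate 2 of 4 weeks, against 3.51 to 5.27, and Errfi1 at 161 TPM in NCAC replicate 2 of 8 weeks, against 606 to 651. Klf9 was at 4.88 TPM in NCAC replicate 4 of 4 weeks, against 24.8 to 40.5, a library that also held at least 100 TPM of Ctrb1. Klf15 was at 40.1 TPM in CAC replicate 4 of 4 weeks, against 76.8 to 98.6, and Sgk1 at 5.69 TPM in NCAC replicate 1 of 2 weeks, against 7.11 to 7.69.

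The CAC minus Con difference itself differed between weeks for 2 of the 9 genes, by a test of its linear trend: 0.703 per 2 weeks for Fkbp5 and 0.812 for Ddit4 on the log2(TPM + 1) scale (limma adjusted p = 0.0112 and 0.00613). A trend was called for 15.7% of all tested genes, and without the 9 libraries rich in Ctrb1 that of Fkbp5 was 0.544 and not called (adjusted p = 0.136).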

How the results depend on the processing

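No called value changed sign. Of 1593 values of the members under the alternatives other than leaving out a library 1473 kept their direction and side of the threshold, 14 passed it in addition, 29 no longer passed, and 77, all of uncalled differences, changed sign, among them Zbtb16 in NCAC against Con at 2 weeks (-0.406 with the clock scores). Fkbp5 and Ddit4 were called against Con and NCAC at 8 weeks under every alternative run. Of the members called against Con at 8 weeks, 5 in the main analysis, 3 remained in number without the filter, without the 20 highest genes, with the replicate block, and without the Ctrb1-rich or the Ctrb1- and Acta1-rich libraries, and 2 with the clock scores, while median-of-ratios or quantile scaling gave 7 and the fit within week 8 gave 6. Against Con at 6 weeks, 2 became 0 without the filter and without either set of libraries and 1 with the clock scores, and against NCAC 2 became 1 without the filter, 0 without either set and 1 with the clock scores, and 3 with median-of-ratios rescaling. Against NCAC at 8 weeks 3 became 4 with median-of-ratios or quantile scaling. The trend calls, 2, became 1 without either set and 3, with Klf15 gained, with median-of-ratios or quantile scaling, with the clock scores or with a 5 TPM minimum on the mean. At 2 weeks the fit within the week gave 1 call for NCAC against Con and 1 for CAC against NCAC, from 0. Leaving out each library in turn gave 0 to 2 calls at 6 weeks against Con and against NCAC, 3 to 5 at 8 weeks against Con, 3 at 8 weeks against NCAC, 2 to 3 for the CAC trend (Zbtb16 or Klf15 gained) and 0 elsewhere. Fewer libraries or more tested genes lower the power of some of these fits by construction, and other causes were not tested. Deviations of same-numbered libraries had mean correlations from -0.028 to 0.019. Such means over all groups cannot show whether libraries of a single week shared a day or handling. Replicate numbers 6 and 7 occur only in CAC at 8 weeks, so the replicate block fits these livers exactly and takes them out of the comparison. Replicate 6 was the highest of its group for Fkbp5, Sgk1, Zbtb16 and Ddit4. With the replicate block Zbtb16 against NCAC at 8 weeks was 1.44 (adjusted p = 0.0505). Depth is unknown, so counting error at low TPM could not be separated from the spread between animals.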
